A study of Mus musculus with 8 samples.

Results

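The immunity-related GTPases (IRGs) are a family of interferon-inducible GTP-binding proteins. Their transcripts were followed here in mouse hematopoietic stem and progenitor cells after a single injection of IFNα. The 8 genes described, Irgm1, Irgm2, Igtp, Iigp1, Tgtp1, Tgtp2, Gm4951 and Ifi47, were taken by symbol from the 27998 genes in the count tables, and all 8 passed the filter on low counts. Bone marrow came from wildtype mice of 12 to 14 weeks, whose strain the labels do not give. They were injected subcutaneously with IFNα, at a dose of 50000 IU for a body weight of 20 g, and marrow was taken after 3, 24 or 72 h, while control mice received 100 µl of PBS. Lineage-negative, cKit-positive (LK) cells were sorted and enriched with CD150+ CD48- CD34- LK cells, so shares of hematopoietic stem cells (HSCs) describe the sorted mixture. Each of the 4 groups held 4 mice, told apart by hashtag antibodies within 1 droplet library per time point, so that library and time point cannot be told apart.

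IRG proteins defend cells against intracellular bacteria and parasites. The regulatory or GMS members, named after a GMS motif in the nucleotide-binding loop, sit on the cell's own membranes and hold the other members inactive there. The effector or GKS members, with the usual GKS motif, load onto the membrane of a pathogen-containing vacuole and help to break it. Transcription is driven by interferons through gamma-activated sites (GAS) and interferon-stimulated response elements (ISRE) in their promoters.

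Of the 8 genes, 6 lie on chromosome 11 in GRCm38 (mm10, GENCODE vM21). Irgm1 (11:48861968-48871683, minus strand), Tgtp1 (11:48985327-48994172, minus), Tgtp2 (11:49057194-49064206, minus) and Ifi47 (11:49076587-49096974, plus) form a neighborhood. Igtp (11:58199556-58207591, plus) and Irgm2 (11:58199618-58222782, plus) overlap at a second locus on the same chromosome. The other members, Gm4951 and Iigp1, are neighbors elsewhere in the genome. All 8 are annotated as protein-coding. Igtp and Irgm2 share 162 exonic bases on the same strand, Tgtp1 shares 223 with Gm12185, and Ifi47 shares 111 with Olfr56 and, on the opposite strand, 106 with the pseudogene Gm12188. Tgtp1 and Tgtp2 are near-identical copies, so their separate values are uncertain.

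Promoter sequences of 6 members were found in the RefSeq table for GRCm38.p6. The ISRE core, GAAA followed after any 2 bases by a second GAAA, searched on both strands of the 250 bases before the start, occurred in 978 of 32851 promoters (2.98%) and in 5 of these 6, all but Ifi47. The GAS motif TTCNNNGAA occurred in 2306 promoters (7.02%) and in Igtp, Irgm2, Tgtp1 and Tgtp2. The joined form, a GAS motif followed after 2 bases by the ISRE core, was present in 5 promoters of the whole table (0.0152%), and 4 of the 5 belong to these same members. The 30-base windows that end with the ISRE core are shown because 4 genes share the arrangement. Igtp and Irgm2 lie at 1 locus, and Tgtp1 and Tgtp2 at another. Motif letters are in capitals, and every line is written 5′ to 3′ on the gene's strand.
Igtp (chr11:58199502-58199531, plus): actagccatTTCTAGGAActGAAACTGAAA
Irgm2 (chr11:58214893-58214922, plus): actagccatTTCCAGGAActGAAACTGAAA
Tgtp1 (chr11:48992314-48992343, minus): actagccatTTCCAGGAAtcGAAACTGAAA
Tgtp2 (chr11:49064273-49064302, minus): gctagccatTTCCAGGAAtcGAAACCGAAA
Irgm1 (chr11:48871435-48871464, minus): ctagcctgtttcaaGAAATAGAAACCGAAA

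Igtp and Irgm2 were identical at 29 of the 30 bases, Tgtp1 and Tgtp2 at 28, and Irgm2 and Tgtp1 also at 28. Irgm1 has no GAS match in its window, carries 2 overlapping ISRE matches instead, and shared 18 to 20 bases with the others. Between the window and the RefSeq start lay 14 bases in Irgm1, 24 in Igtp, 54 in Irgm2, 60 in Tgtp2 and 67 in Tgtp1. The Irgm1 window overlaps an annotated Irgm1 exon of GENCODE vM21, and the others overlap none. A match describes letters only.

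UMIs (unique molecular identifiers, 1 per captured RNA molecule) were summed over the kept cells of each mouse, called the whole compartment, and are given as CPM, the UMI count scaled to library size with TMM factors. After filtering, 2474, 1661, 3462 and 2449 cells remained in control and at 3, 24 and 72 h, with median UMIs per cell between 12017 at 3 h and 18964.5 in control. Control mouse 4 had 58 kept cells, and its values are given with and without it where they decide a result. Barcodes shared between any 2 libraries numbered 9 to 69, and at most 1 of them was kept in both. Summed CPM of marker lists for mature cells that a sort could carry over did not exceed the control range at 3 h. It lay between 30.3 and 33.6 against 36.5 to 47.9 in control for B cells, and between 12.3 and 15.05 against 9.57 to 28.3 for macrophages. For T or NK cells it was 314 to 416 against 327 to 605, for mature neutrophils 4.14 to 5.47 against 6.96 to 7.98, and for endothelial or stromal cells 25.4 to 34.3 against 25.2 to 34.5. No defining marker of these lists was higher by the call used below, 1 B cell and 2 macrophage markers were lower, and none was at 0 in all libraries.

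The first question was how far and for how long the family responds in the compartment as a whole. All 8 members were far higher at 3 h than in control, all 8 had lost most of that rise by 24 h, and none was called at 72 h. Values are given by role, beginning with the regulatory members.

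Irgm1, a regulatory IRG that is also known for a role in HSC maintenance, had 27.9, 28.4, 29.7 and 47.0 CPM in control mice 1 to 4 and 217, 215, 199.6 and 184 CPM at 3 h. At 24 h it had 47.7, 55.7, 46.9 and 52.9 CPM, and at 72 h 29.9, 29.4, 30.6 and 25.2 CPM. The 3 h mice stood above all others, while control mouse 4 reached into the range of the 24 h mice.

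Igtp, also named Irgm3, had 11.4, 11.7, 11.8 and 16.5 CPM in control and 160, 174, 169 and 148 CPM at 3 h. At 24 h it had 21.3, 28.4, 23.2 and 23.02 CPM, above every control mouse. At 72 h it had 13.1, 12.8, 16.6 and 13.2 CPM, within the control range but for mouse 3. Control mouse 4 sets the top of that range, and the 72 h mice all lay above the other control mice. Irgm2, the third regulatory member, had 3.26, 3.01, 2.61 and 1.74 CPM in control and rose to 27.1, 33.4, 34.3 and 28.9 CPM at 3 h. Its values were 4.04, 6.78, 6.86 and 6.11 CPM at 24 h and 3.47, 4.38, 3.22 and 2.24 CPM at 72 h, so the 24 h mice lay above control and the 72 h mice overlapped it.

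Iigp1 (18:60376027-60392634, plus) and Gm4951 (18:60212080-60247820, plus) are neighbors on chromosome 18. Iigp1, also named Irga6 and the best studied effector, had 3.99, 5.39, 4.42 and 24.4 CPM in control and 308, 331, 338 and 303 CPM at 3 h. The 24 h mice had 17.8, 29.8, 20.1 and 23.7 CPM, and the 72 h mice 8.56, 8.42, 8.04 and 7.19 CPM. The control value of mouse 4 was apart from the other 3 and above 3 of the 24 h mice, and the control mean fell from 9.54 ± 9.90 (SD, n = 4) to 4.6 ± 0.72 (SD, n = 3) without it. The 72 h mice all lay below control mouse 4 and above the other 3 control mice.

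Gm4951, a gene of the Iigp1 group whose protein is little studied, had 2.80, 1.87, 2.18 and 6.96 CPM in control and 89.5, 108, 112 and 104 CPM at 3 h. It was at 9.03, 15.8, 12.0 and 12.2 CPM at 24 h, above all controls, and at 3.98, 3.93, 3.22 and 3.79 CPM at 72 h. The 72 h mice all lay between control mouse 1 and control mouse 4.

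Tgtp1 and Tgtp2, the copies together known as Irgb6, showed the same order of time points. Tgtp1 had 1.40, 1.42, 2.07 and 1.74 CPM in control and 60.6, 65.0, 62.1 and 70.5 CPM at 3 h, then 4.63, 5.49, 4.30 and 5.19 CPM at 24 h and 1.11, 1.91, 1.70 and 1.56 CPM at 72 h. Tgtp2 had 5.39, 6.30, 5.48 and 11.3 CPM in control, 110.03, 107, 106 and 99.3 CPM at 3 h, 13.2, 15.4, 15.7 and 13.02 CPM at 24 h, and 5.46, 6.06, 5.90 and 5.73 CPM at 72 h. In both, the 24 h mice stood above every control and the 72 h mice within or below the control range.

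Ifi47, also named Irgd, varied little between mice, with 86.1, 86.8, 81.9 and 85.3 CPM in control and 509, 498, 478 and 473 CPM at 3 h. It had 118, 133, 119.6 and 119 CPM at 24 h and 86.0, 85.7, 90.1 and 90.2 CPM at 72 h. Its 24 h mice did not overlap the controls, and its 72 h mice did.

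**Figure D1:**
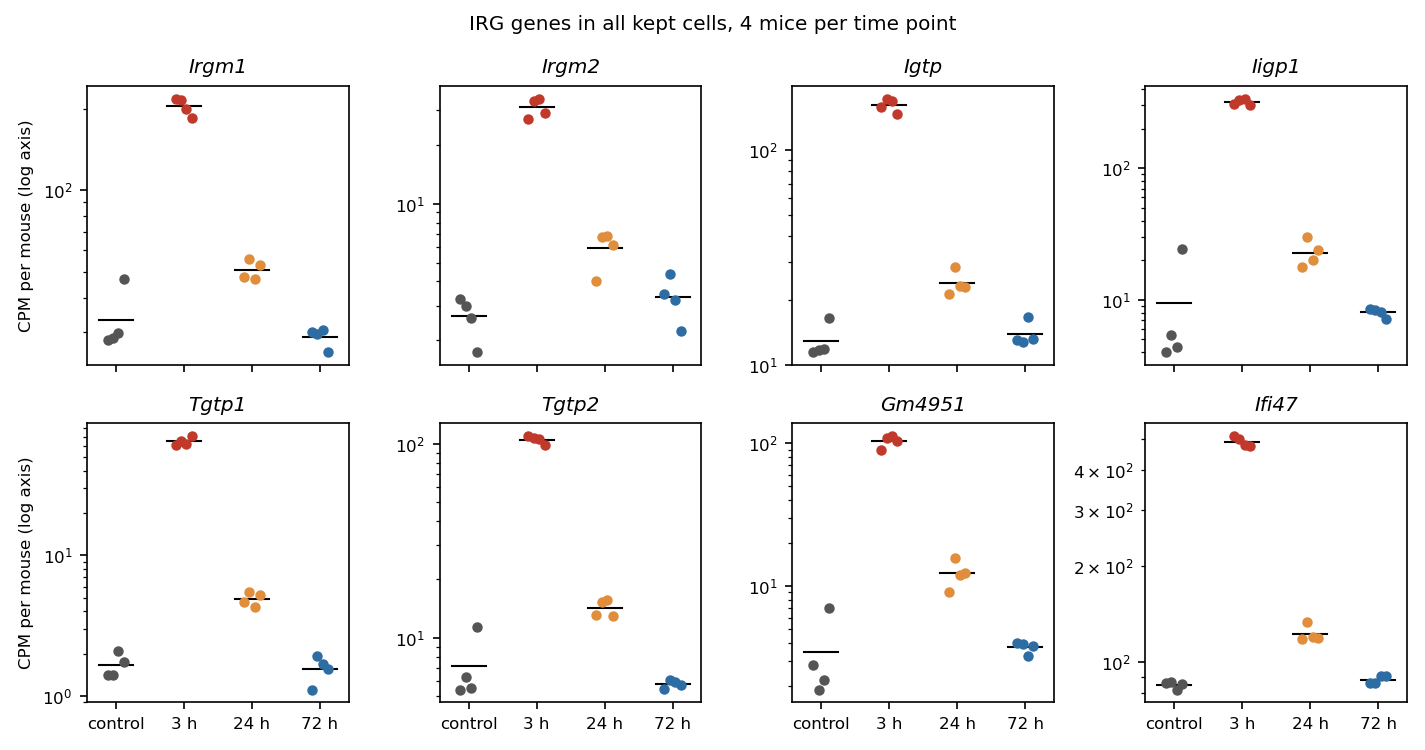
CPM per mouse of each member in the whole compartment (log axis) in control and at 3, 24 and 72 h after IFNα, 1 panel per gene, with bars at the means of 4 mice. In all 8 panels the 3 h mice stand above every other mouse, and control mouse 4 lies apart from the other controls in Iigp1 (24.4 CPM), Igtp (16.5 CPM), Irgm1 (47.0 CPM) and Tgtp2 (11.3 CPM).

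Against control, all 8 members were called higher at 3 h by edgeR's quasi-likelihood test, where 5.22% of the 12042 genes tested were called higher. To be called, a gene needed a log2 fold change beyond 1 in either direction and, after Benjamini-Hochberg adjustment, a p under 0.05. The change was 5.97 on the log2 scale for Iigp1 (SE 0.19, adjusted p = 1.6e-17), 5.42 for Gm4951 (SE 0.16), 5.29 for Tgtp1 (SE 0.12) and 4.17 for Tgtp2 (SE 0.09). It was 3.79 for Igtp (SE 0.09), 3.40 for Irgm2 (SE 0.16), 2.79 for Irgm1 (SE 0.09) and 2.53 for Ifi47 (SE 0.05, adjusted p = 5.8e-22). The largest adjusted p of the 8 was 4.0e-14, that of Irgm2. The median was 3.40 over the 3 regulatory members and 5.29 over the 5 effectors, of which Ifi47 had the lowest change of the family, against a median of -0.03 over all genes tested.

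At 24 h, 6 of 8 members were still called higher, with a background of 1.46% of all genes. These were Gm4951 (log2 fold change 2.38), Iigp1 (2.20), Tgtp1 (1.60), Tgtp2 (1.29), Irgm2 (1.04) and Igtp (1.04). Irgm1 (0.79) and Ifi47 (0.53) passed the adjusted p, as did all 8, but not the fold limit, where 14.5% of all genes were higher by the adjusted p alone. The values of Irgm2 and Igtp lay near that limit, and without 24 h mouse 2 the edgeR estimates were 0.97 and 0.94, which left 4 calls. The mean at 24 h retained 4.28% to 11.6% of the 3 h rise, and 5.20% to 12.6% without control mouse 4, a choice made after seeing the data. The order of the members changed with that mouse, as Iigp1 moved from 4.28% to 5.78% and Irgm1 from 10.3% to 12.6%. Every member was called lower at 24 h than at 3 h, by 1.995 for Ifi47 and 1.998 for Irgm1 up to 3.78 for Iigp1 on the log2 scale, against 2.93% of all genes.

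From 24 to 72 h, all 8 members fell again with an adjusted p under 0.05, as did 5.38% of all genes, and 4 were called lower against a background of 0.648%. Gm4951 fell by 1.75, Tgtp1 by 1.70, Iigp1 by 1.53 and Tgtp2 by 1.31 on the log2 scale. Igtp, Irgm1, Irgm2 and Ifi47 fell by 0.80, 0.83, 0.87 and 0.48. The 72 h mice lay below every 24 h mouse in 7 of the 8 genes, Irgm2 being the exception, and the share of all genes with this separation was not computed.

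At 72 h, 0 of 8 members were called against control in either direction by edgeR or by DESeq2. By edgeR, 1.7% of all genes were called higher and 1.16% lower. An unadjusted p under 0.05 was reached by 3 of 8 members, all 3 in the higher direction by the edgeR estimate. The same count over all genes was not made, but by the adjusted p alone 18.9% of all genes were higher. Iigp1 (log2 fold change 0.67, SE 0.26, adjusted p = 0.047) and Gm4951 (0.63, SE 0.25, adjusted p = 0.049) had the largest estimates by edgeR. These changed with the method, as Iigp1 was -0.0049 by DESeq2 and Gm4951 -0.20 with equal UMIs per mouse. For Iigp1 the edgeR estimate and the group means point opposite ways, and the cause was not tested. The mean was 8.05 CPM at 72 h against 9.54 in control, control mouse 4 included, and the estimate without that mouse was 0.81 (adjusted p = 0.0020). The other 6 ranged from -0.10 for Tgtp1 to 0.24 for Igtp.

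The 8 members moved closely together over the 16 mice. Pearson's r of their log2 CPM lay between 0.932 for Iigp1 with Irgm2 and 0.996 for Irgm1 with Tgtp2. The points fall into clusters by time point and share libraries, so r describes the common time course. Among all other genes tested, those with a course most like the family mean were Usp18, Parp9, Mndal, Ms4a6b and Rsad2, with r between 0.995 and 0.997. Usp18 removes ISG15 from proteins and dampens type I interferon receptor signaling, and Rsad2 encodes the antiviral enzyme viperin.

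The second question was which cells carry the response. Control cells were clustered without the 8 members and the listed interferon genes, treated cells took the cluster of their nearest control cells, and clusters were named by markers as HSC-like (clusters 4 and 8), LMPP-like (lymphoid-primed, cluster 5), myeloid progenitor-like (clusters 1, 2 and 7), erythroid progenitor-like (clusters 10 and 11) and MK (megakaryocyte) progenitor-like (cluster 3). Interferon-responsive Ly6a was among the leading genes of both HSC-like clusters. Those of cluster 4, with 257 control cells, held 1 listed HSC marker, Hlf, and 1 listed LMPP marker, Dntt. The median share of HSC-like cells per mouse went from 17.98% in control to 29.9% at 3 h, then 23.8% at 24 h and 29.3% at 72 h. That of myeloid progenitor-like cells was 33.8%, 22.5%, 27.6% and 19.9%, so in whole-compartment values fewer cells of a type and less RNA per cell cannot be told apart. Within the myeloid class, cluster 7 went from 180 cells in control to 18 at 3 h, cluster 1 from 342 to 132 and cluster 2 from 328 to 211.

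At 3 h all 8 members were called higher in all 5 classes. In myeloid progenitor-like cells Gm4951 had 0 control UMIs, so it passed the filter on low counts through treated mice alone. The share of all genes called higher was 4.27% in HSC-like, 3.77% in LMPP-like, 3.73% in myeloid, 4.1% in erythroid and 3.55% in MK progenitor-like ones. The change was narrowest for Irgm1, between 2.60 in myeloid and 2.97 in MK progenitor-like cells on the log2 scale. Igtp ranged from 3.40 to 4.21, Irgm2 from 2.49 to 4.45, Tgtp1 from 4.25 to 5.84, Tgtp2 from 3.29 to 4.75 and Ifi47 from 1.77 to 3.89. Fitted alone, a check chosen after seeing the data, clusters 1, 2, 4 and 8 also had all 8 called, and cluster 10 had 6, with 2 not tested. Genes called higher in these fits numbered 289 in cluster 1, 335 in cluster 2 and 368 in cluster 4, and their share was not computed. Cluster 7 of the myeloid class, with 18 cells at 3 h, had too few to be fitted. With every mouse thinned to equal UMIs, 5 of 8 were called in myeloid progenitor-like cells.

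**Figure D2:**
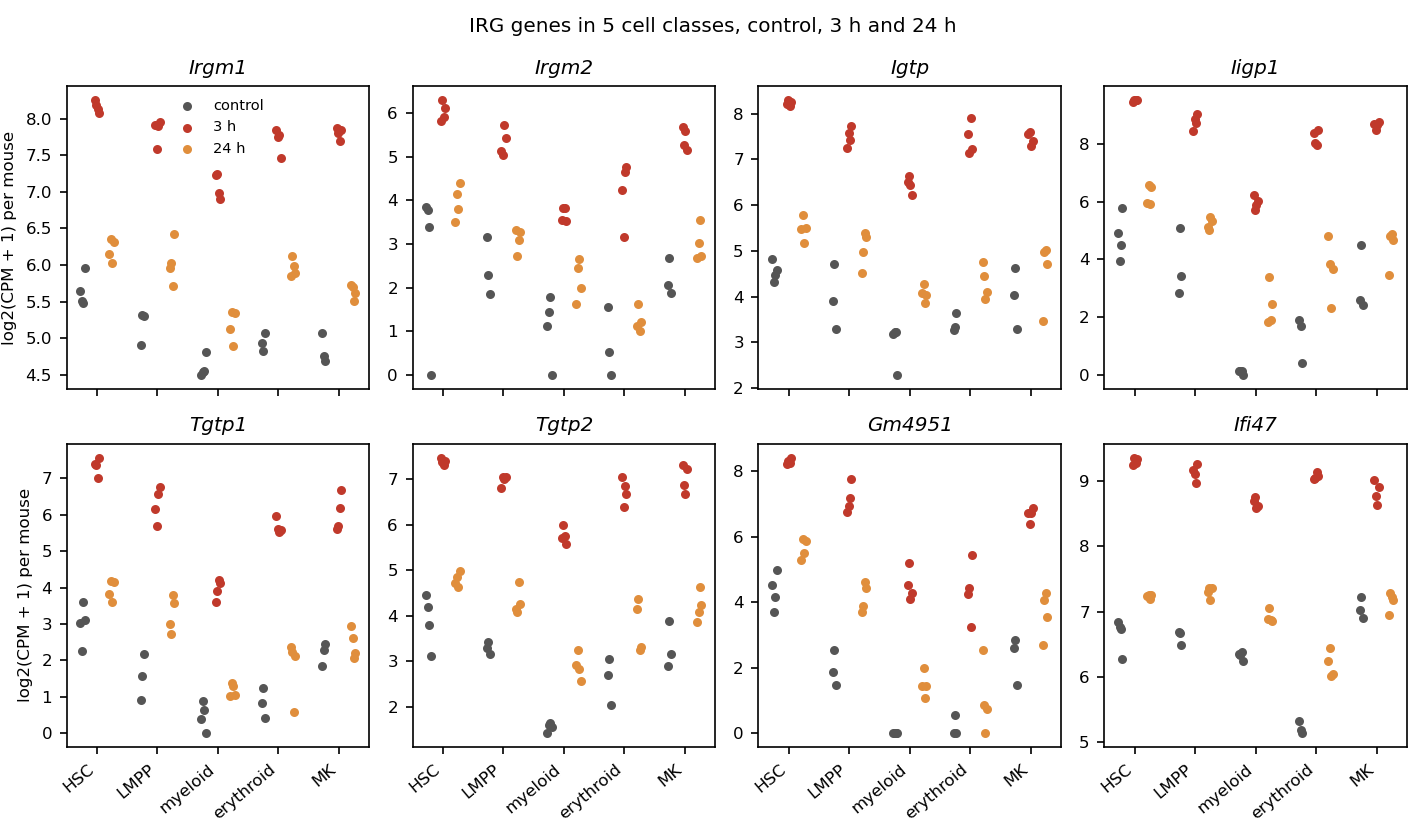
log2(CPM + 1) per mouse of each member in the 5 classes in control and at 3 and 24 h, 1 panel per gene. Every class rises at 3 h in every gene, from control levels that differ between classes, with Iigp1 and Gm4951 near 0 in myeloid progenitor-like controls. Gm4951 is near 0 in erythroid progenitor-like controls too, with a mean of 0.15 CPM.

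Among the 5 classes, HSC-like cells had the highest mean CPM of every member at 3 h. Outside these 5 classes, cluster 13 (57 cells at 3 h) had pooled levels of 324 CPM for Irgm1 and 199 CPM for Tgtp2. These were 235 and 128 CPM in cluster 4 and 301 and 191 CPM in cluster 8, the clusters of the HSC-like class. The unnamed cluster 9 (106 cells at 3 h) had 263 and 139 CPM, between clusters 4 and 8. Its Ifi47 was 547 CPM, against 540 in cluster 4 and 627 in cluster 8, and its other members lay below cluster 4. Cluster 14, which is unnamed, held 6 cells, with 10 Irgm1 and 45 Ifi47 UMIs. Iigp1 stood at 699.5, 724, 733 and 721 CPM in the HSC-like cells of the 4 mice. It had 346 to 515 CPM in LMPP-like, 358 to 431 in MK, 249 to 357 in erythroid and 50.7 to 73.3 in myeloid progenitor-like cells. LMPP-like cells overlapped both the MK and the erythroid progenitor-like cells, while the HSC-like and the myeloid ends of this order stood apart. The myeloid class was a mixture, with pooled Iigp1 levels of 27.3 CPM in cluster 1, 88.8 in cluster 2 and 8.52 in cluster 7 (4 UMIs).

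Gm4951 followed with 296, 316, 306 and 339 CPM in HSC-like cells, 108 to 215 in LMPP-like and 83.5 to 116 in MK progenitor-like cells. It reached 8.38 to 42.6 CPM in erythroid and 16.2 to 35.9 in myeloid progenitor-like cells, which overlapped. Among the myeloid clusters, pooled Gm4951 was 8.73 CPM in cluster 1, 31.0 in cluster 2 and 2.13 in cluster 7 (1 UMI). Irgm1 had 269.6 to 305 CPM in HSC-like cells, 191 to 246 in LMPP-like, 207 to 234 in MK, 175 to 229 in erythroid and 118 to 151 in myeloid progenitor-like cells. The middle 3 classes overlapped, and the ends did not.

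Within mice, HSC-like cells exceeded the other class in 128 of 128 pairs at 3 h, taking 8 genes, 4 classes and 4 mice. Without regard to mice, 31 of 32 gene and class comparisons did not overlap, and the exception was Ifi47 against LMPP-like cells. With plain CPM the counts at 3 h were 128 of 128 pairs and 30 of 32 comparisons. The 128 pairs reuse the same 4 mice, and the share of all genes with this order was not computed. The mean in HSC-like cells was 13.6 times that in myeloid progenitor-like cells for Gm4951, 11.7 times for Iigp1 and 11 times for Tgtp1. It was 5.46 times for Irgm2, 3.45 for Igtp, 3.12 for Tgtp2, 2.10 for Irgm1 and 1.56 for Ifi47. The myeloid means mix clusters whose pooled Iigp1 and Gm4951 levels differed, as given above. The higher level in HSC-like cells was present before treatment, in 95 of 104 pairs in control. It was seen in 119 of 128 pairs at 24 h and 117 of 128 at 72 h. In control, Ifi47 ran the other way against MK progenitor-like cells, which exceeded HSC-like cells in 3 of 3 mice (118 to 149 against 106 to 114 CPM in the same mice). At 24 h, Ifi47 was higher in HSC-like cells in 2 of 4 mice against MK and 1 of 4 against LMPP-like cells. At 72 h this was 0 of 4 and 1 of 4. Against myeloid and erythroid progenitor-like cells it was 4 of 4 each at 24 h, and 3 of 4 and 4 of 4 at 72 h. CPM is relative to the RNA captured per cell, and HSC-like cells held fewer UMIs, with a median of 8788 against 23009 in myeloid progenitor-like cells at 3 h. In UMIs per cell, pooled over mice and without that scaling, the order did not hold for every member. Iigp1 had 6.07 UMIs per HSC-like cell (3216 in 530 cells) and 1.37 per myeloid progenitor-like cell (496 in 361). Ifi47 had 5.28 per HSC-like cell against 8.84 per myeloid and 11.2 per erythroid progenitor-like cell, and Irgm1 2.38 against 2.95 and 4.37.

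Iigp1 and Gm4951 had control levels at or near 0 in myeloid progenitor-like cells. Iigp1 had 0.10, 0.11, 0.11 and 0 CPM in these cells of the control mice, 3 UMIs in 850 cells, and 73.3, 50.7, 58.1 and 64.5 CPM at 3 h. Pooled over mice this was a 547-fold rise, with a 95% interval of 186 to 2661 that covers counting error only. Gm4951 had 0 UMIs of 28023641 in the 850 control cells, and 21.9, 35.9, 16.2 and 18.4 CPM at 3 h. Against a floor of 3 UMIs over the control group, Gm4951 was at least 187-fold higher at 3 h and at least 19.1-fold higher at 24 h. Control levels were low in erythroid progenitor-like cells as well, with means of 1.79 CPM for Iigp1 and 0.15 CPM for Gm4951 (n = 3).

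The differences between classes in the change from control were tested in 1 edgeR fit with the mouse as a block, each class against HSC-like cells. Of 96 differences over the 3 time points, 10 had a Benjamini-Hochberg adjusted p under 0.05, all at 3 or 24 h. In myeloid progenitor-like cells (clusters 1, 2 and 7), 3 of the 8 members differed at 3 h, against 3.67% of all genes. The change of Gm4951 was larger than in HSC-like cells by 4.48 on the log2 scale (SE 0.81, adjusted p = 6.2e-05), that of Iigp1 by 3.69 (SE 0.75, adjusted p = 4.7e-04) and that of Tgtp2 by 1.46 (SE 0.29, adjusted p = 3.7e-04). With Gm4951 at 0 and Iigp1 near 0 in these controls, the size of the first 2 depends on the prior count. For Gm4951 the adjusted p likewise rests on a control without counts, so it is no separate support for a class difference. The same genes differed at 24 h, by 3.69 for Gm4951, 3.37 for Iigp1 and 1.08 for Tgtp2, against 3.27% of all genes.

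In erythroid progenitor-like cells, 2 of 8 members differed at 3 h, against 3.82% of all genes. Ifi47 had 39.3, 35.4 and 34.3 CPM in the 3 control mice with enough cells and 524, 526, 562 and 542 CPM at 3 h, a change larger than in HSC-like cells by 1.29 (SE 0.13, adjusted p = 1.1e-12). It remained larger at 24 h, by 0.51 (SE 0.14, adjusted p = 0.015), against 4.3% of all genes. Iigp1 differed at 3 h by 2.29 (SE 0.59, adjusted p = 0.012) from control values of 2.75, 2.27 and 0.35 CPM. In MK progenitor-like cells the change of Ifi47 at 3 h was smaller than in HSC-like cells by 0.74 (SE 0.12, adjusted p = 6.9e-05), against 0.0473% of all genes. Here control mice had 129, 149 and 118 CPM and 3 h mice 516, 436, 398 and 478 CPM. Of the 10 differences, 6 lost the threshold without control mouse 1. These were Tgtp2 at both times (1.11 and 0.77), Gm4951 and Iigp1 in myeloid cells at 24 h (3.46 and 3.12), and Iigp1 at 3 h (2.59) and Ifi47 at 24 h (0.53) in erythroid cells. Tgtp2 at 24 h also lost it without control mouse 2 (1.07) and without 24 h mouse 1 (1.04) or 2 (0.89). Ifi47 in erythroid cells at 24 h lost it without control mouse 3 (0.48) or 24 h mouse 2 (0.43), and Iigp1 there at 3 h without control mouse 3 (1.84). The differences of Gm4951 and Iigp1 in myeloid cells and of Ifi47 in erythroid and MK progenitor-like cells at 3 h passed with any 1 mouse left out.

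**Figure D3:**
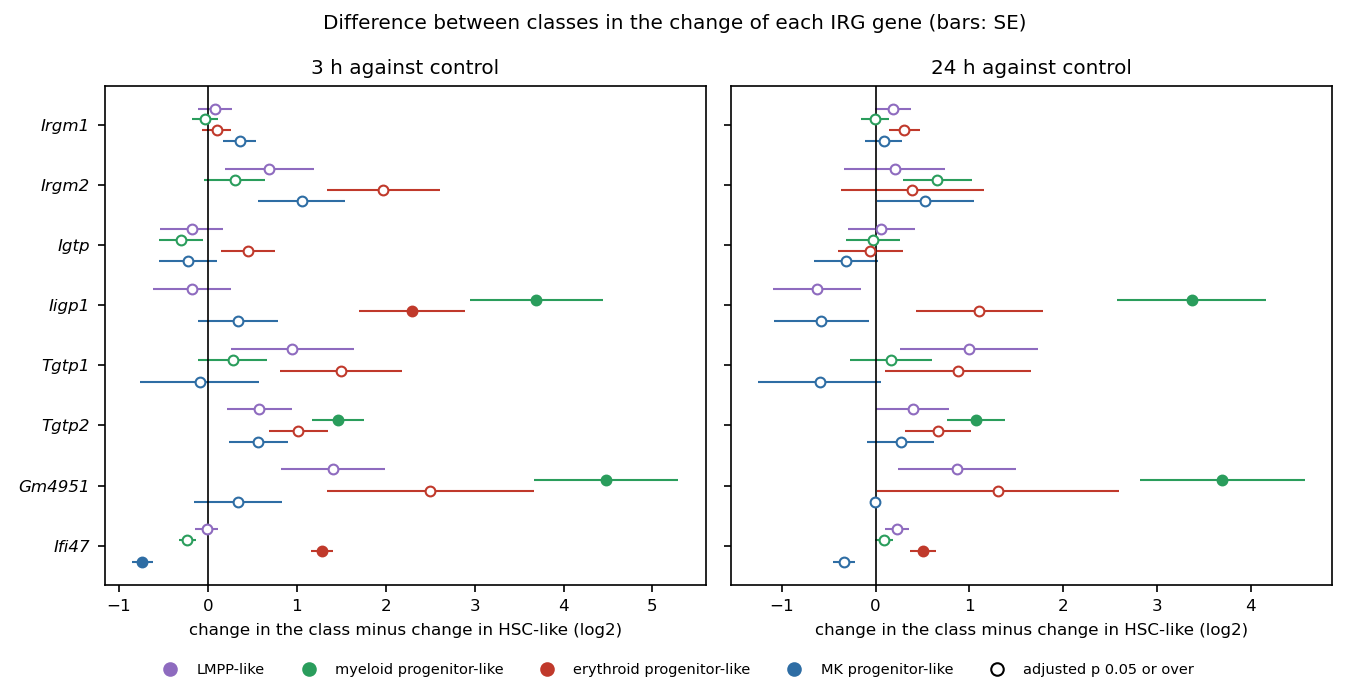
Difference between the log2 change from control in a class and that in HSC-like cells, for each member at 3 and 24 h, with bars for the SE and filled points for an adjusted p under 0.05. Filled points stand to the right for Gm4951, Iigp1 and Tgtp2 in myeloid and for Ifi47 and Iigp1 in erythroid progenitor-like cells, and to the left for Ifi47 in MK progenitor-like cells.

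Irgm1, Igtp, Irgm2 and Tgtp1 had no class difference with an adjusted p under 0.05, and no member had one in LMPP-like cells, where 0.0945% of all genes differed at 3 h and 0.0284% at 24 h. At 72 h none of the 8 differed in any class, against 0.936% of all genes in myeloid, 0.652% in erythroid, 0.0189% in LMPP-like and 0% in MK progenitor-like cells. This does not show equal changes. The class differences of Tgtp1 and Tgtp2 were not tested on their sum, so the contrast between these near-identical copies is uncertain. The ratio of Iigp1 to Gm4951 UMIs at 3 h was 2.31 in HSC-like, 2.98 in LMPP-like, 2.92 in myeloid and 3.92 in MK progenitor-like cells, while erythroid progenitor-like cells had 14.5. The erythroid ratio rests on 45 Gm4951 UMIs and 652 Iigp1 UMIs, and its difference from the other classes was not tested.

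The return differed in its calls by class, and the difference between classes was tested only against HSC-like cells as above. At 24 h, 5 members were called higher in myeloid progenitor-like cells (Iigp1, Gm4951, Irgm2, Tgtp1 and Tgtp2), where 1.45% of all genes were. In LMPP-like cells, 4 were called (Iigp1, Gm4951, Igtp and Tgtp2, background 0.841%) and in erythroid progenitor-like cells 3 (Iigp1, Irgm1 and Tgtp2, background 1.7%). Iigp1 and Gm4951 alone were called in HSC-like cells (background 0.714%) and, among MK progenitor-like cells, too (background 0.465%). In HSC-like cells, Iigp1 had 61.5, 93.5, 59.0 and 90.5 CPM at 24 h against 28.8, 14.3, 21.7 and 53.6 in control, and the groups did not overlap. Gm4951 had 38.4, 59.5, 43.9 and 57.1 CPM against 22.2, 12.1, 16.7 and 30.6, again without overlap. Iigp1 was called higher at 24 h in every class, with log2 fold changes from 1.18 in LMPP-like to 5.41 in myeloid progenitor-like cells. With 1 mouse left out it ranged from 0.78 to 2.16 in LMPP-like cells, where the call was lost in 2 of 15 fits, and from 0.79 to 2.26 in MK progenitor-like cells, where it was lost in 4 of 15. With equal UMIs per mouse, 0 members were called in HSC-like cells at 24 h. The MK count was 0 without control mouse 3 or 24 h mouse 2 and 1 without control mouse 1 or 24 h mouse 3, and the LMPP count 1 without control mouse 1 or 3 and 2 without 24 h mouse 3. The HSC-like count was 4 without 24 h mouse 1 or 3, the erythroid count 6 and 5 without 24 h mouse 3 and 4, and the myeloid count 3 without control mouse 1 or 24 h mouse 2.

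At 72 h, 0 of 8 members were called in any class by edgeR's quasi-likelihood test, where 0.459% of all genes were called higher in HSC-like, 0.439% in LMPP-like, 0.956% in myeloid, 0.532% in erythroid and 0.431% in MK progenitor-like cells. Among the alternatives, 1 member was called in myeloid progenitor-like cells under the likelihood ratio test, without the filter on low counts or with the hashtag number as a replicate block. An unadjusted p under 0.05 was reached by 2 members in HSC-like, 1 in LMPP-like, 2 in myeloid and 0 in erythroid and MK progenitor-like cells. By the edgeR estimate, 0 of these were higher than control in HSC-like and LMPP-like cells and 1 in myeloid progenitor-like cells. The others were lower, and the same count over all genes was not made. In HSC-like cells Iigp1 had 22.6, 31.1, 21.1 and 18.7 CPM, within the control range, and Gm4951 had 15.3, 16.2, 11.5 and 14.6 CPM, within it but for mouse 3. Gm4951 in myeloid progenitor-like cells had 0.50, 0.36, 0.23 and 0 CPM, against 0 in every control mouse.

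Shares of cells with at least 1 UMI were compared after thinning each cell to 5000 UMIs, which left out 35, 61, 35 and 68 cells in control and at 3, 24 and 72 h. Across all cells, the share with Iigp1 rose from 3.24% ± 1.36 (SD, n = 4) in control to 64.8% ± 2.07 at 3 h and was 11% ± 1.87 at 24 h and 4.62% ± 0.60 at 72 h. The share with Ifi47 went from 32.9% ± 4.84 to 87.0% ± 2.74, that with Irgm1 from 18.6% ± 6.34 to 60.4% ± 3.64 and that with Irgm2 from 1.96% ± 0.76 to 15.5% ± 2.13. In all 8 genes the 3 h mice stood above every control, and the same count over all genes was not made.

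The mean number of members detected per cell is the sum of the 8 members' shares, so it does not show whether members were detected in the same cells. A thinned control cell held 0.72 ± 0.07 members on average. This mean rose to 3.83 ± 0.07 at 3 h and was 1.15 ± 0.10 at 24 h and 0.72 ± 0.03 at 72 h. Without thinning the control mice had means of 1.55 to 1.71 and the 3 h mice 5.36 to 5.50. Cells with no member made up 48.9% ± 1.09 of control cells and 1.2% ± 0.66 of 3 h cells. Cells with at least 4 members made up 1.58% ± 1.33 of control and 54.9% ± 2.35 of 3 h cells. In control, cells with all 8 members made up 0% to 1.75% of a mouse's cells. In a mouse with few cells, such as control mouse 4 with 58 kept, a single cell can give such a share. At 3 h the mean number of members was 5.14 ± 0.18 in HSC-like, 4.14 ± 0.40 in LMPP-like and 3.89 ± 0.15 in MK progenitor-like cells. It was 3.19 ± 0.27 in erythroid and 2.34 ± 0.06 in myeloid progenitor-like cells. Control means were 1.15 in HSC-like and 0.45 in erythroid progenitor-like cells.

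Of 27 two-sided exact permutation tests of the shares and of the members per cell against control, 16 had an adjusted p of 0.0482, from the smallest p that 4 against 4 mice allow, 0.0286. They were all 9 at 3 h and, at 24 h, those of Iigp1, Igtp, Tgtp2, Gm4951, Ifi47 and the members per cell. The only one at 72 h was Igtp, whose share was 7.24% to 8.19% against 5.64% to 7.02% in control. All 16 had that smallest p, and at 2000 UMIs per cell 0 tests passed.

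**Figure D4:**
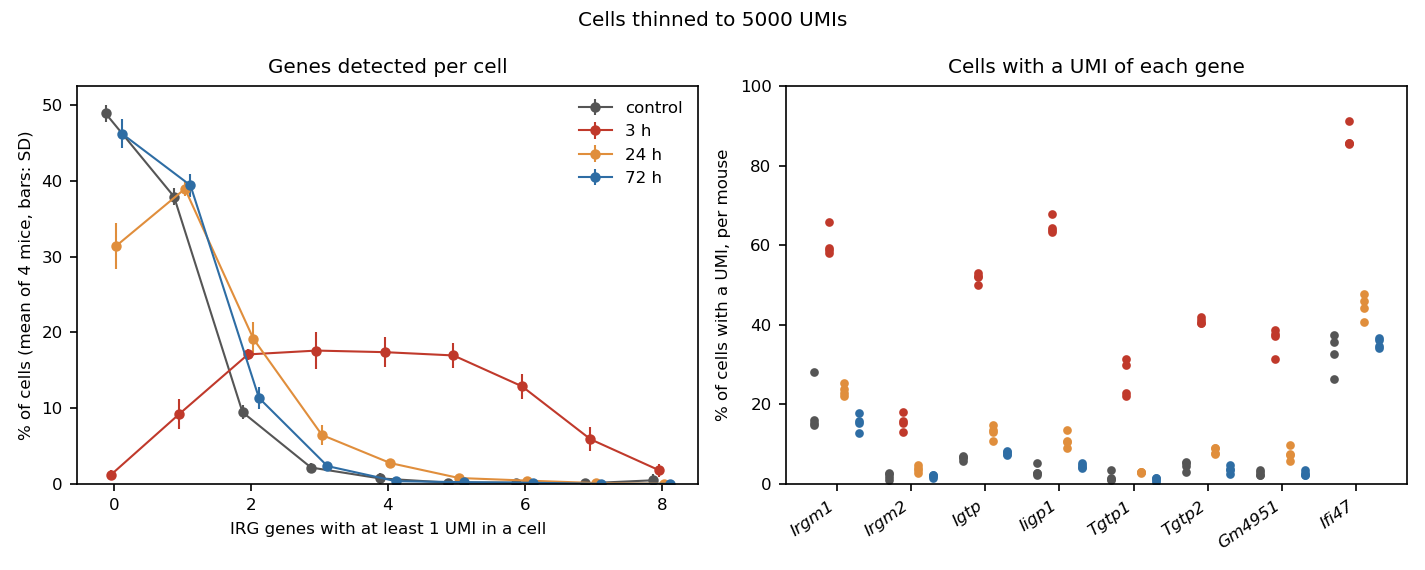
Cells thinned to 5000 UMIs. Left, percent of cells by the number of the 8 members detected in them (mean and SD of 4 mice per time point); right, percent of cells with a UMI of each member per mouse. At 3 h the distribution moves from mostly 0 or 1 member to a mean of 3.83, and at 72 h it lies near the control curve, with a mean of 0.72 in both.

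In HSC-like cells, 8.87% of 406 thinned control cells and 88.7% of 496 at 3 h had an Iigp1 UMI. For Gm4951 these shares were 9.85% and 68.3%, and 20.9% at 24 h. In myeloid progenitor-like cells, 0 of 850 control cells had an Iigp1 or a Gm4951 UMI after thinning, which by the rule of 3 counts allows a share of up to 0.353%. That limit is for cells with a UMI at that depth and covers counting error only. Without thinning, 3 of the 850 cells had an Iigp1 UMI (0.353%, exact binomial interval 0.0728% to 1.03%) and 0 had a Gm4951 UMI. How much of the 3 h shares comes from free RNA of other cells was not tested. At 3 h 22.2% of 361 had Iigp1 and 12.5% had Gm4951. Ifi47 was detected in 34.1% of these control cells and in 19.0% of the erythroid progenitor-like ones, against 81.2% and 79.8% at 3 h.

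Other genes of the pathway were taken from lists. Of the other IRG loci, 6 of the 7 tested were called higher at 3 h, where 5.22% of all genes were, from 9930111J21Rik2 (log2 fold change 2.38) to Gm5431 (5.29), with a median of 4.39. Irgq, an IRG-related gene, was the seventh, at -0.50 and not called, and Irgc1 was listed at 0 UMIs in every group. Other interferon-inducible GTPases, the guanylate-binding proteins with Gvin1 and Mx1, were called higher in 10 of the 10 tested, with a median of 3.57. The list holds further genes that were not tested, so this is not a count over the whole family. A gene low in control can pass the filter on low counts through the 3 h mice alone. Gbp2, which acts with IRG proteins at vacuoles, went from 7.67 ± 1.69 to 89.1 ± 11.3 CPM, and Mx1, an antiviral GTPase, changed by 6.80. The symbol Gbp6 stands for 2 gene identifiers and was not tested.

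Interferon genes and receptors showed no call among the 4 tested. Ifnar1 and Ifnar2, the chains of the type I receptor, had -0.17 and -0.16, and Ifngr1 and Ifngr2, those of the type II receptor, -0.69 and -0.40, the latter pair with an adjusted p under 0.05. Ifnb1, Ifna2 and Ifna4 had 0 UMIs in control and at 3 h, and Ifng was at or near 0. Of 14 JAK-STAT and IRF genes, 8 were called higher and 1 lower, against 5.22% and 1.68% of all genes, with a median of 1.34. Irf9 (1.51) and Irf1 (1.18), which bind the ISRE, rose, the feedback inhibitors Usp18 (5.57) and Socs1 (2.97) as well, while Irf8, a regulator of monocyte development, fell by 1.12.

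Among 17 genes listed as autophagy conjugation and ubiquitin partners of IRG proteins, the ubiquitin ligase Trim21 alone was called higher (1.69). That share is near the 5.22% of all genes called higher at 3 h. Trim21 was also among the interferon genes left out of the clustering. The list's median was -0.13. Atg5, needed to load IRG proteins onto vacuoles, was lower by less than the limit (-0.35, adjusted p = 3.1e-04). At 24 h, 3 other IRG loci, 4 other GTPases and, of the JAK-STAT and IRF genes, Irf7 (3.07) and Usp18 (1.80) were still called higher, against 1.46% of all genes. At 72 h the count was 0 in each of these lists by edgeR, with an adjusted p under 0.05 in the upward direction for 2 GTPases, 4 JAK-STAT and IRF genes and 2 autophagy genes, where 18.9% of all genes were higher by the adjusted p alone.

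**Figure D5:**
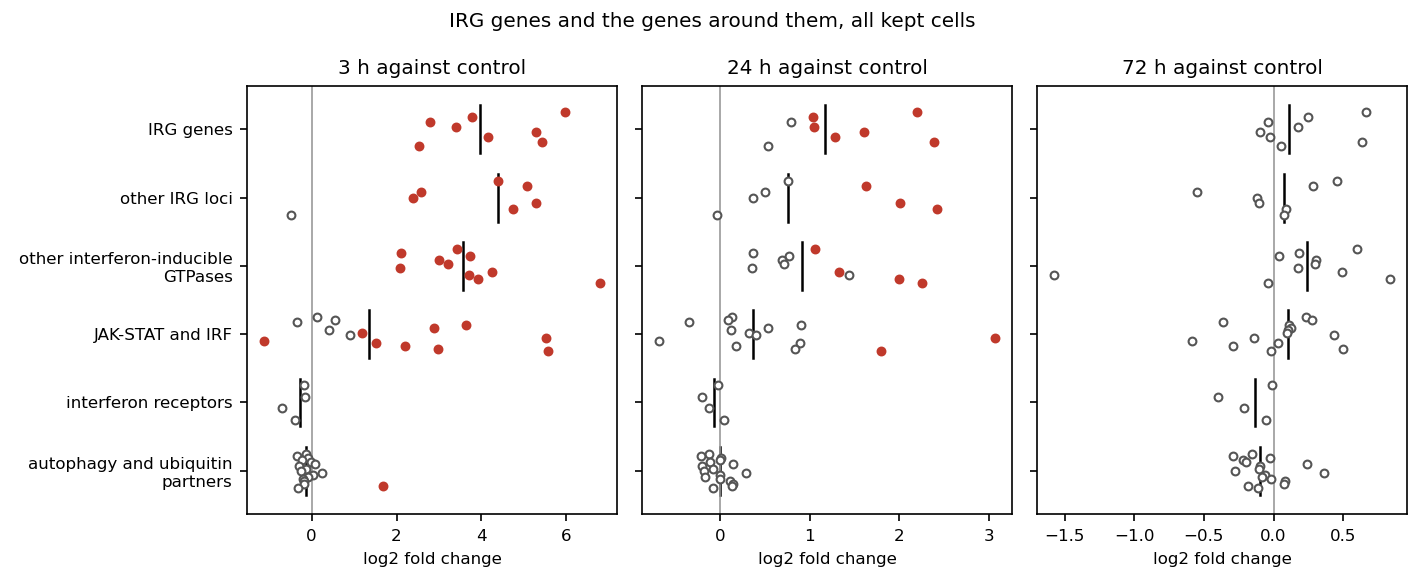
log2 fold change against control of the genes of each list at 3, 24 and 72 h in the whole compartment, with red points for calls and a line at the list's median. The members and the other GTPases lie far above 0 at 3 h, with medians of 3.98 and 3.57, while the autophagy list stays near 0 with a median of -0.13.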

How the data were processed

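The deposited UMI counts per gene and cell, 1 matrix per library, were made by the authors from 10x reads with Cell Ranger 3.1.0 on mm10, per the labels, with hashtag calls per barcode in a second table, where the authors also deposited a margin score between the hashtags that was not used here. The gene annotation and the strand setting of the counting are not given in the sources used here. Cells with a single hashtag, at most 5% mitochondrial UMIs and at least 700 detected genes were kept, and no further doublets were removed in the main fits, since Scrublet's own threshold called 0 to 3 cells per library. UMIs were summed per mouse and class (at least 10 cells, so control mouse 4 is missing from the LMPP-like, erythroid and MK fits), filtered with filterByExpr and tested with edgeR 4.0.16's quasi-likelihood test with TMM factors in R 4.3.3, all time points in 1 fit and Benjamini-Hochberg adjustment over all genes tested. DESeq2 1.42.0 was an alternative. CPM of a class uses the factors of that class's own fit. Control cells were clustered with scanpy 1.11.5 (500 variable genes, 10 components, 15 neighbors, Leiden resolution 0.8). Intervals are exact and, like floors of 3 UMIs, cover counting error only. The fits were checked on simulated data. The members, roles and gene lists were chosen with earlier results of these data known. All 8 members were tested in each main comparison, while some values in the text are given for only some of them.

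The other IRG list has 9 symbols, of which 1 was not analysed here. Hashtag numbers name mice, and the main fits did not pair them. Between time points, deviations of mice with the same number correlated between -0.058 and 0.095, and those of mice with different numbers between -0.118 and 0.141. Alternatives covered the test, normalization, filters, doublets, equal UMIs per mouse, the summed Tgtp copies, label transfer, thinning depth and each mouse left out. Fits of single clusters and plain CPM between classes were added after seeing the data.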

Additional observations from a re-analysis of the deposited data

Results flagged for a closer look

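In 15 of 167 groups of 4 mice, 1 mouse lay outside the range that Dixon's test allows, which chance gives in about 1 in 20 groups, and 7 of the 15 were control mouse 4 with its 58 cells. In the whole compartment this mouse was highest in Iigp1 (24.4 CPM), Igtp (16.5 CPM), Irgm1 (47.0 CPM) and Tgtp2 (11.3 CPM). In myeloid progenitor-like cells it was lowest in Iigp1 (0.0 CPM) and Igtp (3.86 CPM) and highest in Irgm1 (27.0 CPM). Only 3 of the 850 control cells of this class had an Iigp1 UMI. The other whole-compartment values that stood apart were Igtp in 72 h mouse 3 (16.6 CPM) and Ifi47 in 24 h mouse 2 (133 CPM). In LMPP-like cells they were Irgm1 in 3 h mouse 2 (191 CPM, lowest) and Ifi47 in 72 h mouse 4 (84.6 CPM, lowest). In myeloid progenitor-like cells they were Iigp1 in 72 h mouse 1 (0.25 CPM) and Ifi47 in 24 h mouse 2 (132 CPM). In erythroid progenitor-like cells they were Tgtp1 in 3 h mouse 1 (61.6 CPM) and Gm4951 in 72 h mouse 2 (0.77 CPM). At 72 h an Iigp1 UMI was found in 1 of 505 myeloid and a Gm4951 UMI in 1 of 185 erythroid progenitor-like cells.

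The change from control differed from that in HSC-like cells by a test of the difference itself in 10 cases. In myeloid progenitor-like cells the log2 difference was 4.48 at 3 h and 3.69 at 24 h for Gm4951, 3.69 and 3.37 for Iigp1, and 1.46 and 1.08 for Tgtp2. In erythroid progenitor-like cells it was 1.29 at 3 h and 0.51 at 24 h for Ifi47, and 2.29 at 3 h for Iigp1. In MK progenitor-like cells it was -0.74 at 3 h for Ifi47.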

How the results depend on the processing

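The 3 h change of every member kept its direction and its call in the 1283 alternatives that tested it over the whole compartment and the classes, and at 24 h in 1198 of 1283. In 21 further cases a member was not tested, because it was below the filter on low counts or, for Tgtp1 and Tgtp2, because the pair was summed. With every mouse thinned to the UMIs of the smallest one, control mouse 4, all genes called became 416 at 3 h, 106 at 24 h and 131 at 72 h, against 831, 267 and 345. Members called lower from 24 to 72 h became 2. Members called higher became 5 in myeloid progenitor-like cells at 3 h, where Gm4951, Tgtp1 and Irgm2 were not tested, and 0 in HSC-like, 1 in LMPP-like and 2 in myeloid progenitor-like cells at 24 h. Without the filter on low counts 413 genes were called at 24 h. In myeloid progenitor-like cells 1 member was called at 72 h under the likelihood ratio test, without that filter or with the hashtag number as a replicate block, and 3 at 24 h in cluster 2 alone. In erythroid progenitor-like cells 5 were called at 24 h under the likelihood ratio test and 1 in cluster 10 alone. The cause of these moves was not tested. At 2000 UMIs per cell 0 share tests passed, and the members per cell differed from control by 1.96 at 3 h and 0.16 at 24 h.

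Signs at 72 h turned in 11 fits. Irgm1 was 0.0018 without control mouse 4 and 0.020 without 72 h mouse 4. Tgtp1 was 0.42 with equal UMIs, 0.10 without control mouse 3 and 0.065 without 72 h mouse 1. Tgtp2 was 0.000275 with the replicate block, and 0.0228, 0.00958 and 0.00649 without control mouse 2, control mouse 4 and 72 h mouse 1. Gm4951 turned from 0.63 to -0.20 with equal UMIs and Iigp1 from 0.67 to -0.0049 by DESeq2. With 1 mouse left out these ranged from -0.077 to 0.020 for Irgm1, -0.20 to 0.10 for Tgtp1 and -0.082 to 0.023 for Tgtp2. The replicate block gave 852, 265 and 347 genes called at 3, 24 and 72 h, and 9 of 16 mice were closest to their own number, a hint from the data only.

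With 1 mouse left out, members called higher at 24 h ranged from 4 to 6 in the whole compartment, 2 to 4 in HSC-like, 1 to 5 in LMPP-like, 3 to 6 in myeloid, 2 to 6 in erythroid and 0 to 3 in MK progenitor-like cells. Differences between classes ranged from 5 to 12. Share tests that passed were 0 to 0. A test of 3 against 4 mice cannot pass. The tests left at 4 against 4 mice did not pass either, since their adjusted p depends on how many tests share the smallest p. Members per cell differed by 3.08 to 3.14 at 3 h and 0.39 to 0.47 at 24 h.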
